A study of Mus musculus with 18 samples.

Results

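The immediate early genes of the IER, PHLDA, polo-like kinase and Krüppel-like factor families were followed in mouse melanoma allografts: Ier2, Ier3, Ier5, Phlda1, Phlda2, Plk2, Plk3, Klf4, Klf6 and Klf10. Members were all probe sets whose only gene symbol in the platform annotation is one of these 10 names, which gave 18 probe sets of the 45037 in the deposited table and 10 of its 18193 named genes. All 10 genes and 17 of the 18 probe sets passed a filter on low values. The tumours grew from iNRAS-475, a single mouse melanoma line with inducible NRAS, placed in the skin of nude mice given doxycycline (2 mg/ml) to drink. Tumours had 6 weeks to grow to 200 to 500 mm3, and the 3 groups that followed held 6 distinct tumours each. The -NRAS group had doxycycline withdrawn for 4 days, the MEKi group received the MEK inhibitor AZD6244 (selumetinib) at 100 mg/kg for 4 days, and the vehicle group received vehicle, with no duration given in its labels. The -NRAS group alone lost doxycycline, so an effect of the drug itself and loss of the oncogene cannot be told apart. The labels name neither the promoter nor the cells that drive the transgene, and all tumours come from 1 line, so the replicates differ by tumour and host and not by line.

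Immediate early genes are transcribed within minutes of a growth signal, without new protein synthesis. RAS passes such a signal through RAF to MEK and ERK, and ERK acts on nuclear factors of the ternary complex, AP-1 and ETS families that sit at early gene promoters. Besides EGR and FOS factors, the early response includes adaptor and death regulators (IER and PHLDA proteins), serum-inducible polo-like kinases, and Krüppel-like zinc finger factors, several of which slow growth. The tumours are whole tissue, so a lower value can come from fewer cells of a type or from less RNA per cell, and these cannot be told apart.

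RefSeq promoter windows (GRCm38.p6) were present for 7 of the 10 genes. The 250 bases upstream of the annotated start are printed for Phlda2, Ier3 and Plk2, which had the largest falls in -NRAS tumours among these 7, and for Klf6, whose brightest probe set passed in no comparison. Capitals mark GGGCGG (the GC box bound by SP1 and KLF proteins) on either strand, TGACGTCA (the cyclic AMP response element) and TATAAA (the TATA box). The sequences run 5′ to 3′ along the gene's strand.
Phlda2, chr7:143502525-143502774, minus strand: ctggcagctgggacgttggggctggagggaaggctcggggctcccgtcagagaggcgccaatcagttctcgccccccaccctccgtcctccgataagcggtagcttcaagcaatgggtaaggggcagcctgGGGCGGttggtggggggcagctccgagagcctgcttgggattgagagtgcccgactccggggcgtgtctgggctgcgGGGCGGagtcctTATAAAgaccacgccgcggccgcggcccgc
Ier3, chr17:35821463-35821712, plus strand: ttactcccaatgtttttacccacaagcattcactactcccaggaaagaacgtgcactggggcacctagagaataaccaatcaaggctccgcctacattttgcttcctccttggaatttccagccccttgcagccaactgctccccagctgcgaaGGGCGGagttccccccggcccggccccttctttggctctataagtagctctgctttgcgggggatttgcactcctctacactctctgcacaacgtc
Plk2, chr13:110394794-110395043, plus strand: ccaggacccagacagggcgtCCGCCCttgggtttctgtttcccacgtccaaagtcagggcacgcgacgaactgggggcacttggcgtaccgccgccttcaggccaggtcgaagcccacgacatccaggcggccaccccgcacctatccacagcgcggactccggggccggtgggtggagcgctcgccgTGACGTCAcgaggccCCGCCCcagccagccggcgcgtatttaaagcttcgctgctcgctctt
Klf6, chr13:5861239-5861488, plus strand: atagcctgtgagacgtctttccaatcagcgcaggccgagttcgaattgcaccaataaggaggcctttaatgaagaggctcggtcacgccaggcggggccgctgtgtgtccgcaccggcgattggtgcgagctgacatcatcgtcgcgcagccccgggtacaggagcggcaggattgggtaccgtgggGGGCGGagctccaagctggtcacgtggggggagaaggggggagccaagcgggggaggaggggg

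Both strands of the upstream windows were searched. GGGCGG was in 7 of the 7 windows, against 32.7% of the 32851 start windows in the table, and the 7 windows were 54.4% to 74.0% GC, against a median of 52.4% over all windows. TATAAA lay 30 to 25 bases upstream of the Phlda2 start and in no other of the 7 windows (12.4% of all windows hold it). TGACGTCA lay 62 to 55 bases upstream of the Plk2 start alone, a sequence in 1.55% of all windows. The CArG box of serum response factor (1.47% of all windows), the ETS core CCGGAA (12%) and the AP-1 site TGANTCA (6.75%) had no match in these 7 windows, which says only that these letters are not there. The GC box was thus in the windows of genes that fell and of Klf6 and Ier5 alike.

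Each tumour was read on 1 array, and array medians lay between 72.3 and 78.5 intensity units. Tumours of the same group correlated at 0.9783 to 0.9967 on the log2 scale. Of 15005 genes tested, 59.3% changed between -NRAS and vehicle tumours, 45.2% between MEKi and vehicle tumours and 47.0% between the treated groups. The mouse Nras gene, whose 3 probe sets are not known to read the transgene, was lower than in vehicle tumours by 0.19, 0.43 and 0.28 on the log2 scale in the -NRAS group and by 0.27, 0.31 and 0.23 in the MEKi group, and its 3 differences between -NRAS and MEKi tumours did not pass, so it does not check the switch. The keratinocyte markers (9 of 11 tested) summed to an intensity of 27835 in -NRAS replicate 2, against 756 to 872 in the other 5 -NRAS tumours. Values below are intensities, and changes are differences of log2(intensity + 16) ± SE with 6 tumours per group, called at a limma adjusted p (Benjamini-Hochberg over all genes) under 0.05.

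In -NRAS tumours 8 of the 10 early genes fell relative to vehicle tumours: Phlda2, Phlda1, Ier3, Plk2, Klf10, Klf4, Ier2 and Plk3. None rose, and Ier5 and Klf6 did not pass the test at their brightest probe sets. The background is high, since 27.5% of all tested genes fell and 31.8% rose in this comparison. In 7 of the 10 the -NRAS and vehicle tumours did not overlap, all with -NRAS lower. Of all tested genes, 39.2% did not overlap and 18.4% did so with -NRAS lower, and Plk3 was the gene that fell with overlap. In MEKi tumours 8 of the 10 fell, with Ier5 and Klf6 again short of the threshold, against a background of 20.9% that fell and 24.3% that rose. In all 8 the MEKi tumours lay below every vehicle tumour, as in 12.7% of genes (25.5% did not overlap in either direction). Both comparisons use the same 6 vehicle tumours. The median change over the 10 genes was −1.20 for -NRAS minus vehicle and −0.94 for MEKi minus vehicle, against 0.00 and 0.01 over all genes. Over the 17 member probe sets taken singly these medians were −0.52 and −0.54.

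**Figure D1:**
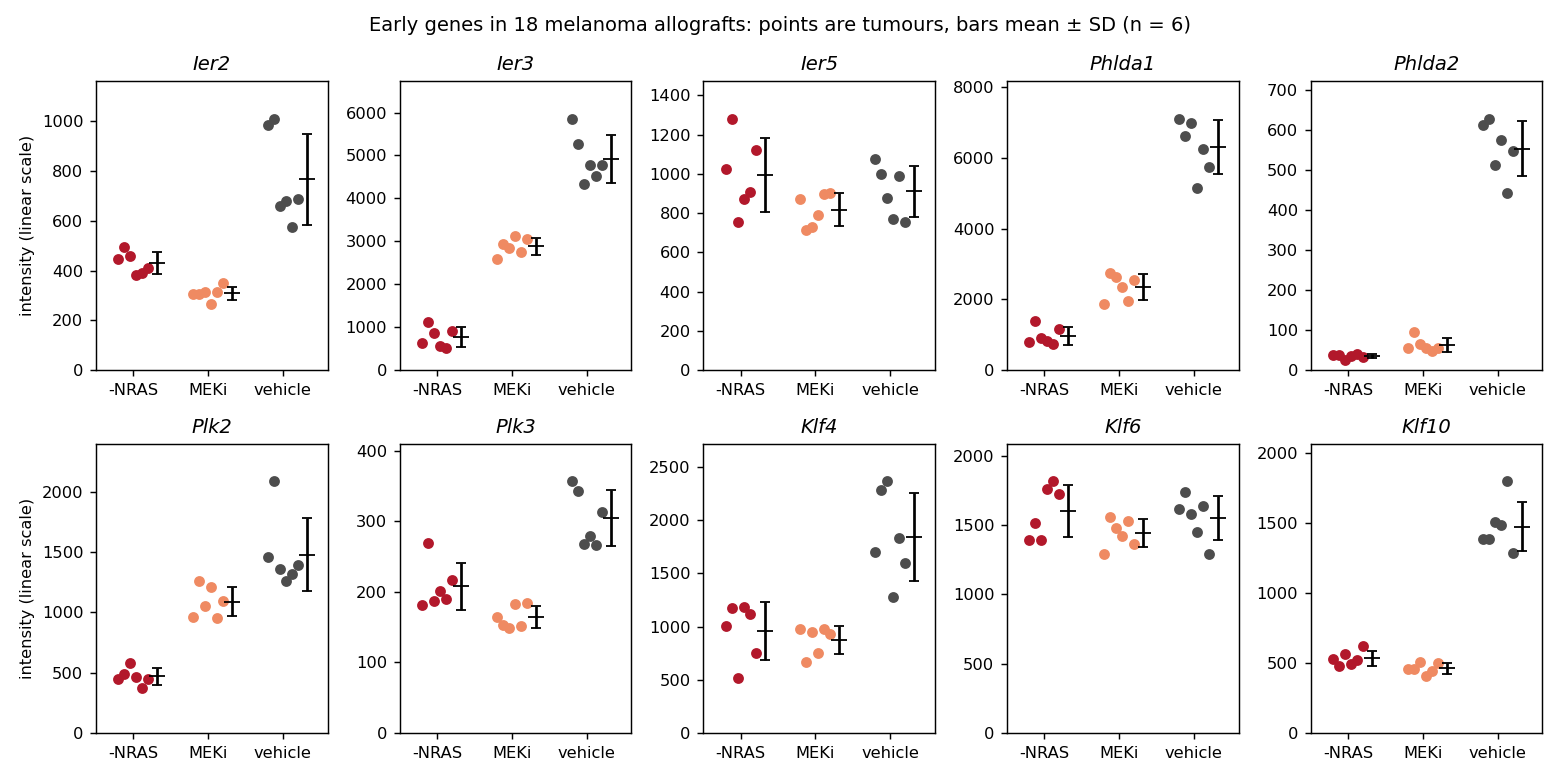
Intensity (linear scale, from 0) of the brightest probe set of each of the 10 early genes in -NRAS, MEKi and vehicle tumours. Points are tumours and bars are mean ± SD (n = 6). Phlda1, Ier3 and Plk2 step down from vehicle through MEKi to -NRAS without overlap. The treated groups overlap for Klf4, Klf10 and Plk3, and Klf6 and Ier5 overlap in all 3 groups.

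The PHLDA genes encode small proteins with a pleckstrin homology-like domain. Phlda2, an imprinted gene that restrains placental growth, had an intensity of 26.3 to 40.6 (median 37.0) in the 6 -NRAS tumours, 47.4 to 96.6 (median 55.0) in the MEKi tumours and 443 to 628 (median 562) in the vehicle tumours. The 3 groups did not overlap, and both treated groups were close to the filter level of 23.5. Phlda2 fell by 3.46 ± 0.12 in -NRAS tumours (limma adjusted p = 4.82e-14). Its change in MEKi tumours was −2.88 ± 0.12 (limma adjusted p = 7.74e-12). The size depends on the pseudocount at so low a level: the changes were −3.93 and −3.16 with a pseudocount of 1, and −2.63 and −2.29 with one of 64. It was lower in -NRAS than in MEKi tumours by −0.58 ± 0.12 (limma adjusted p = 0.000406), a value that was −0.34 with a pseudocount of 64 and −0.77 with one of 1.

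Phlda1, also called TDAG51, takes part in cell death and in restraint of growth factor signalling. Its intensity was 741 to 1394 (median 874) in -NRAS tumours, 1856 to 2745 (median 2449) in MEKi tumours and 5135 to 7101 (median 6427) in vehicle tumours. The groups were stepwise and did not overlap. The gene fell by 2.70 ± 0.14 in -NRAS tumours and changed by −1.43 ± 0.14 in MEKi tumours (limma adjusted p = 1.1e-11 and 1.61e-07). Between -NRAS and MEKi tumours the difference was −1.28 ± 0.14 (limma adjusted p = 4.3e-07).

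Ier3, or IEX-1, is an ERK substrate that favours survival. In -NRAS tumours it read 525 to 1121 (median 748), in MEKi tumours 2581 to 3127 (median 2901) and in vehicle tumours 4335 to 5855 (median 4777). The -NRAS tumours had a wider relative spread (coefficient of variation 30.4%) than the MEKi (6.97%) and vehicle tumours (11.3%). Ier3 fell by 2.70 ± 0.14 in -NRAS tumours and by 0.76 ± 0.14 in MEKi tumours (limma adjusted p = 1.58e-11 and 0.000241). The difference of −1.93 ± 0.14 between -NRAS and MEKi tumours (adjusted p = 3.34e-09) was the largest of the 10 genes.

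Ier2, a nuclear protein of the early response, showed the other order. Its intensity was 384 to 494 (median 428) in -NRAS tumours, 268 to 349 (median 310.4) in MEKi tumours and 576 to 1009.9 (median 684) in vehicle tumours. Vehicle replicates 1 and 2, at 984 and 1009.9, stood above the other 4 (576 to 688), and no group overlapped another. Ier2 fell by 0.78 ± 0.12 in -NRAS tumours and changed by −1.24 ± 0.12 in MEKi tumours, and was higher in -NRAS than in MEKi tumours by 0.45 ± 0.12 (limma adjusted p = 1.03e-05, 9.1e-08 and 0.00316).

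Ier5, which acts on the heat shock factor HSF1, was measured by 3 probe sets that disagreed. The brightest, 1417612_at, read 755 to 1281 (median 967) in -NRAS tumours, 713 to 902 (median 832) in MEKi tumours and 757 to 1075 (median 934) in vehicle tumours, with overlap throughout. Its change was 0.11 (95% interval −0.13 to 0.36) in -NRAS and −0.15 (−0.39 to 0.10) in MEKi tumours (limma adjusted p = 0.41 and 0.333). The dimmer 1460009_at was higher in -NRAS than in vehicle tumours by 0.42 ± 0.12 when every probe set was fitted on its own (limma adjusted p = 0.00664) and differed by 0.01 ± 0.12 in MEKi tumours. The third, 1417613_at, changed by −0.13 ± 0.07 and −0.15 ± 0.07, neither past the threshold. No direction against vehicle tumours can therefore be given for Ier5 as a gene. In -NRAS minus MEKi the 3 probe sets, in the same order, were at 0.26 ± 0.12, 0.41 ± 0.12 and 0.02 ± 0.07. Only 1460009_at passed there (limma adjusted p = 0.0106). With the mean of its probe sets, Ier5 was higher in -NRAS than in MEKi tumours by 0.23 (limma adjusted p = 0.0345). That call thus depended on how the probe sets were summarised.

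Plk2 and Plk3 are serum-inducible polo-like kinases, Plk2 being linked to centriole duplication and Plk3 to stress checkpoints. Plk2 had an intensity of 371 to 582 (median 458) in -NRAS tumours, 957 to 1257 (median 1076) in MEKi tumours and 1263 to 2086 (median 1376) in vehicle tumours. The MEKi and vehicle groups nearly touched, and vehicle replicate 2 had the highest value. Plk2 fell by 1.62 ± 0.11 in -NRAS tumours and by 0.42 ± 0.11 in MEKi tumours (limma adjusted p = 7.29e-10 and 0.00535), and the -NRAS tumours were lower than the MEKi tumours by −1.20 ± 0.11 (adjusted p = 7.78e-08). A second Plk2 probe set, 1443780_at, stayed between 16 and 24.2 in all 18 tumours and failed the filter. Averaging it with the bright one gave changes of −0.84 and −0.22.

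Plk3 read 181 to 269.5 (median 196) in -NRAS tumours, 148 to 184 (median 159) in MEKi tumours and 266 to 356 (median 296) in vehicle tumours. The only overlap with vehicle was -NRAS replicate 2, at 269.5, the tumour with the high keratinocyte marker sum. Plk3 fell by 0.52 ± 0.09 in -NRAS and by 0.83 ± 0.09 in MEKi tumours, and was higher in -NRAS than in MEKi tumours by 0.30 ± 0.09 (limma adjusted p = 8.24e-05, 8.93e-07 and 0.0116). The polo-like kinases thus differed in order: Plk2 was lowest in -NRAS tumours and Plk3 in MEKi tumours. The treated groups did not overlap for Plk2 but did for Plk3, whose call between them ended at a threshold of 0.01.

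The Krüppel-like factors bind GC-rich DNA through zinc fingers. Klf10, known as TGF-beta-inducible early gene, had an intensity of 479 to 624 (median 524) in -NRAS tumours, 407 to 509 (median 456) in MEKi tumours and 1288 to 1799.7 (median 1438) in vehicle tumours. Every treated tumour was below every vehicle tumour, and the treated groups overlapped. Its changes were −1.43 ± 0.08 and −1.64 ± 0.08 (limma adjusted p = 2.48e-11 and 2.29e-11). The -NRAS tumours were higher than the MEKi tumours by 0.20 ± 0.08 (adjusted p = 0.0412), and this call ended with each array centred on its median (0.17, adjusted p = 0.0902). It also ended without any one of -NRAS replicates 1, 3, 5 and 6 or MEKi replicates 1, 2, 4 and 5 (0.16 to 0.21, limma adjusted p = 0.0533 to 0.108).

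Klf4, a factor of epithelial differentiation and of reprogramming to pluripotency, read 519 to 1179 (median 1061) in -NRAS tumours, 666 to 974 (median 939) in MEKi tumours and 1282 to 2365 (median 1768) in vehicle tumours. Both treated groups lay below all vehicle tumours. It fell by 0.96 ± 0.19 in -NRAS and changed by −1.05 ± 0.19 in MEKi tumours (limma adjusted p = 0.000201 and 0.000146), and the second probe set, 1417395_at, gave −0.93 ± 0.16 and −0.96 ± 0.16. Between -NRAS and MEKi tumours the difference was 0.09 with a 95% interval of −0.30 to 0.48 (adjusted p = 0.729). That interval leaves room for a difference in either direction.

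Klf6, a factor induced by injury that can restrain growth, had 5 probe sets. The brightest, 1433508_at, read 1393 to 1815 (median 1622) in -NRAS tumours, 1290.1 to 1556 (median 1449.6) in MEKi tumours and 1288 to 1741 (median 1598) in vehicle tumours, and the groups overlapped. Its change was 0.04 (95% interval −0.13 to 0.21) in -NRAS and −0.10 (−0.27 to 0.07) in MEKi tumours (limma adjusted p = 0.669 and 0.331). With each probe set fitted on its own, 3 of the 5 were lower in MEKi than in vehicle tumours: 1418280_at by −0.54 ± 0.20, 1427742_a_at by −0.43 ± 0.11 and 1447448_s_at by −0.19 ± 0.07 (limma adjusted p = 0.0357, 0.00241 and 0.0445). None of the 5 passed in -NRAS tumours. The dimmest, 1459718_x_at, differed by 0.06 ± 0.07 in MEKi tumours. In -NRAS minus MEKi only 1427742_a_at passed, at 0.33 ± 0.11 (limma adjusted p = 0.0145), and 1459718_x_at was at −0.08 ± 0.07. With the mean of its 5 probe sets as the gene's value, Klf6 was lower in MEKi than in vehicle tumours by −0.24 (limma adjusted p = 0.0342), and with its most variable one by −0.54 (limma adjusted p = 0.035). The call for Klf6 in MEKi tumours thus depended on how its probe sets were summarised.

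**Figure D2:**
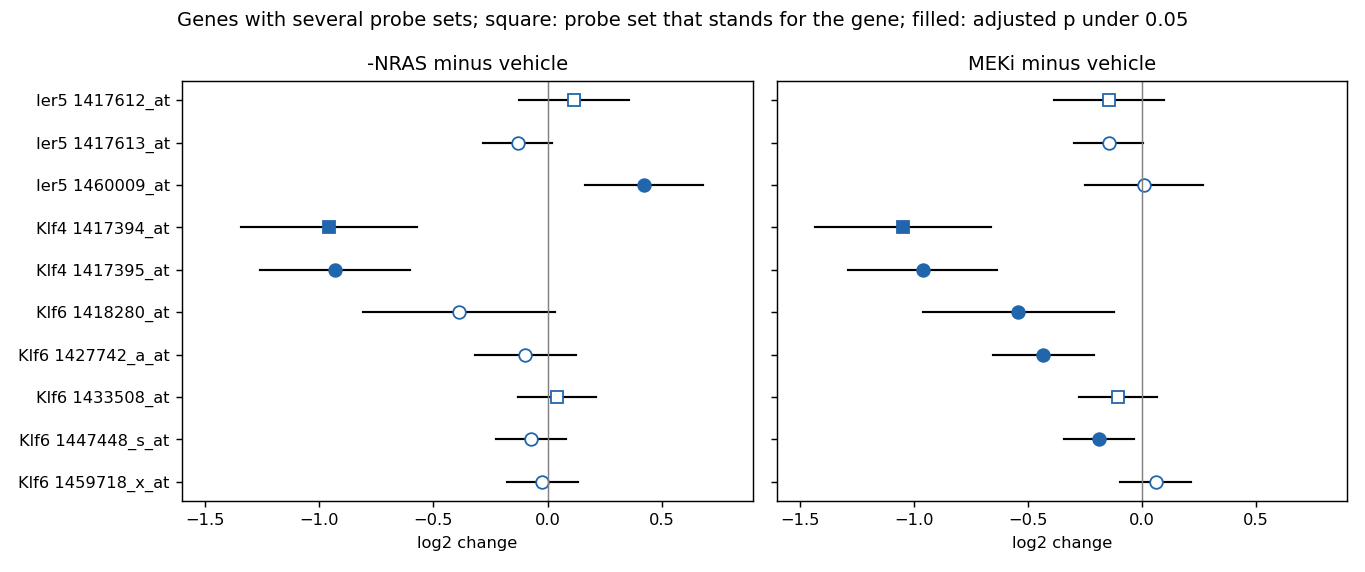
Log2 change of each probe set that passed the filter for Ier5, Klf4 and Klf6, in -NRAS minus vehicle (left) and MEKi minus vehicle (right). Lines are 95% intervals, squares are the probe sets that stand for the gene and filled symbols passed a limma adjusted p under 0.05. The 2 Klf4 probe sets lie together, whereas 1 Ier5 probe set rose in -NRAS tumours and 3 Klf6 probe sets fell in MEKi tumours.

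The treated groups were also set against each other. In -NRAS minus MEKi, 4 genes were lower (Ier3, Phlda1, Plk2 and Phlda2), against 22.7% of all tested genes. Another 3 were higher (Ier2, Plk3 and Klf10), a count near the 24.3% of all tested genes. The Klf10 call ended under several alternatives, as given above. Klf4, Klf6 and Ier5 did not pass at their brightest probe sets. The -NRAS tumours lay below every MEKi tumour in 4 of the 10 genes, as in 13.3% of all genes, and Ier2 lay above without overlap (28.3% of all genes did not overlap in either direction). The changes of the 10 genes in this contrast ran from −1.93 for Ier3 to 0.45 for Ier2, with a median of 0.12 against −0.01 over all genes.

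**Figure D3:**
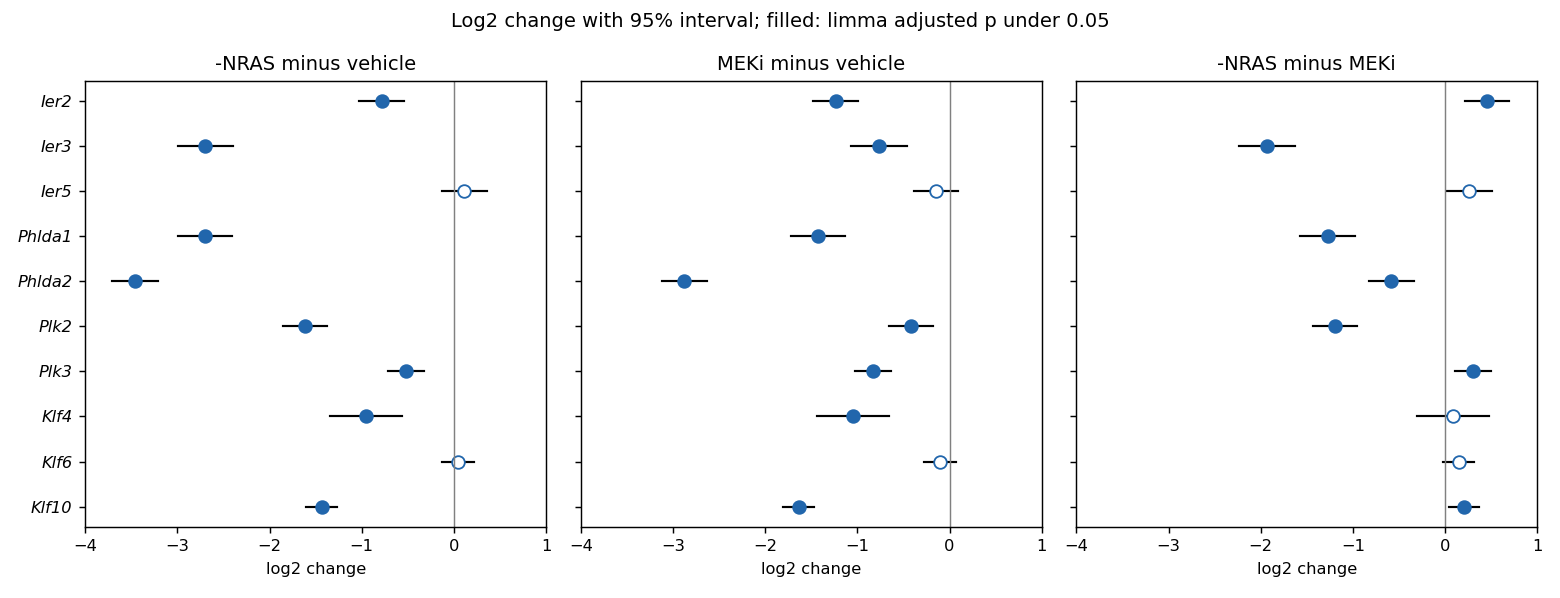
Log2 change (x axis) with 95% interval for the 10 early genes in -NRAS minus vehicle, MEKi minus vehicle and -NRAS minus MEKi. Filled symbols passed a limma adjusted p under 0.05. Phlda2 is far left in both comparisons with vehicle, and the third panel parts Ier3, Phlda1, Plk2 and Phlda2 on the left of 0 from Ier2, Plk3 and Klf10 on the right.

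In -NRAS replicate 2, the tumour with the high keratinocyte marker sum, 5 of the 10 genes had their highest -NRAS value: Ier2, Ier3, Ier5, Phlda1 and Plk3. Without this tumour all 8 calls against vehicle held, with changes of −3.48 for Phlda2, −2.81 for both Phlda1 and Ier3, −1.63 for Plk2, −1.40 for Klf10, −1.03 for Klf4, −0.82 for Ier2 and −0.60 for Plk3. The 7 calls between the treated groups held as well, at −2.05 for Ier3 to 0.42 for Ier2. MEKi replicate 2 held its group's highest value for 4 of the 10 genes, and vehicle replicates 1 and 2 for 4 each. No share over all tested genes is given for such highest values, so these counts are descriptions. Other cell type markers moved with the groups. Macrophage markers (10 of 10 tested) summed to 43227 to 60926 in -NRAS, 8508 to 19355 in MEKi and 17511 to 27960 in vehicle tumours. Fibroblast markers (10 of 10) summed to 177362 to 210007, 119595 to 126962 and 76763 to 94737 in the same groups, and skeletal muscle markers (10 of 10) to 31102 to 47304, 18369 to 42559 and 3141 to 16269. Endothelial markers (10 of 10) summed to 2440.3 to 3503 in -NRAS, 1177 to 1864 in MEKi and 1091 to 1901 in vehicle tumours. Keratinocyte markers in the MEKi and vehicle tumours summed to 669 to 1224 and 623 to 777. Melanocytic markers (7 of 9 tested) summed to 9685 to 13046, 12449.6 to 17736 and 9092 to 11181, with Pmel, Mlana and Mitf detected and the pigment enzyme genes Tyr and Tyrp1 at 12.4 to 21.8 in all 18 tumours, below the filter. No marker was listed at 0. Relative to vehicle tumours, 31.8% of all tested genes rose and 27.5% fell in -NRAS tumours. In MEKi tumours 24.3% rose and 20.9% fell. Of 10 fibroblast markers 8 rose and 2 fell (Pdgfra and Thy1) in -NRAS tumours, and 7 rose and 1 fell (Pdgfra) in MEKi tumours. All 10 of 10 muscle markers rose in each. Of 10 endothelial markers 10 rose in -NRAS tumours, and 1 rose and 1 fell in MEKi tumours. Of 7 melanocytic markers 4 rose and 1 fell in -NRAS tumours, and 2 rose and 0 fell in MEKi tumours. Their sum reached its highest values in MEKi tumours, but single genes differed in direction. In -NRAS minus MEKi, 3 of the 7 were higher (Pmel, Mlana and Mitf) and 2 lower (Sox10 and Mc1r). Among all tested genes 24.3% were higher and 22.7% lower there. Of the macrophage markers 10 of 10 rose in -NRAS and 8 of 10 fell in MEKi tumours. Of the 9 keratinocyte markers tested, 0 rose and 0 fell in each of the 3 contrasts. The part of any cell type in the changes was not tested.

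Within groups, pairs of members correlated to different degrees and in both directions. Deviations from the group mean over the 18 tumours correlated at 0.77 for Ier3 with Phlda1, 0.69 for Ier3 with Plk3 and 0.60 for Ier5 with Plk3, and at −0.46 for Plk3 with Klf10. Over the 45 pairs the median was 0.18 and 33 were above 0. Each array contributes to every pair, and no background over other gene pairs is given, so these are descriptions. Without -NRAS replicate 2, an alternative chosen after seeing the data, the first 3 values were 0.64, 0.50 and 0.42, Plk3 with Klf10 was at −0.36, and Ier3 with Klf4 was lowest at −0.65. The median was then 0.22, and 33 of the 45 pairs were above 0.

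**Figure D4:**
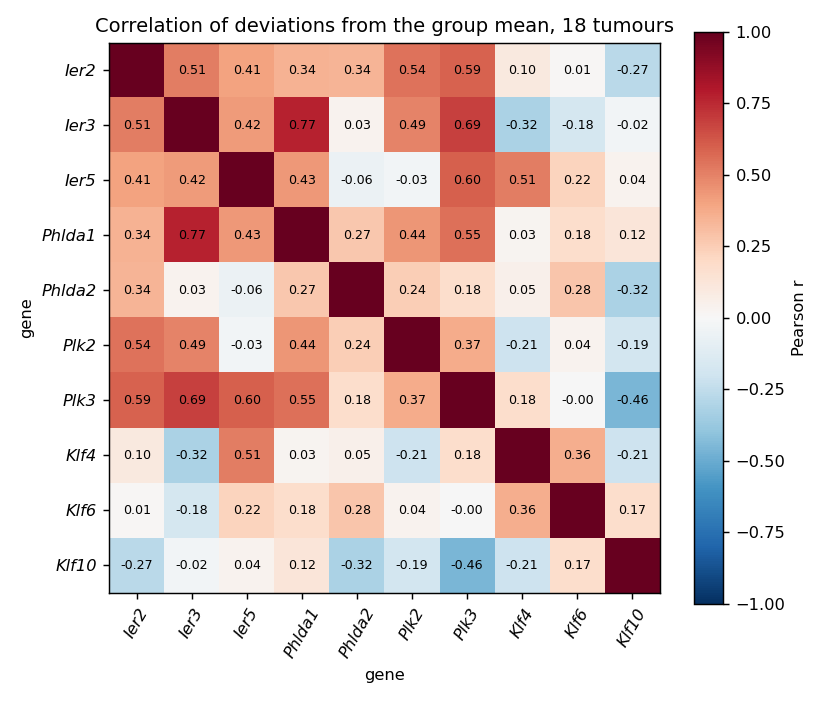
Pearson correlation of deviations from the group mean between the 10 early genes, over 18 tumours, from −1 (blue) to 1 (red). Ier3 and Phlda1 have the highest value, 0.77, and Plk3 with Klf10 the lowest, −0.46.

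Over all 18 tumours, group differences included, each member was set against the 15005 tested genes by Pearson correlation of log2 values. Phlda1 was most like Igfbp3, the ERK phosphatase gene Dusp6 and Lrrfip1 (0.987 to 0.99). Ier3 was nearest to Prkg2, Reln and Rnf217 (0.987 to 0.989), Phlda2 to Nppb, Pik3cb and Ddx18 (0.984 to 0.985) and Plk2 to Baiap2l1, Trpv4 and Nup37 (0.977 to 0.982). Ier2 was nearest to Eif6, the early factor Egr1 and Utp4 (0.963 to 0.972), and within groups these 3 were at 0.866, 0.835 and 0.691. Within groups the named neighbours of all members ran from 0.282 (Klf10 with Tpst2) to 0.885 (Phlda1 with Igfbp3). Klf10 lay with Foxc2, 2310057M21Rik and Tpst2 (0.976 to 0.98), Plk3 with Rae1, Pitpna and Slc7a11 (0.938 to 0.944) and Klf4 with Sf3b4, Cars and Clint1 (0.858 to 0.875). Ier5 and Klf6 had weaker neighbours: Trarg1, Aldh8a1 and Havcr2 (0.737 to 0.775), and Igkv8-30, Jchain and Igkv14-111 (0.771 to 0.851), the last 3 being immunoglobulin genes. The group differences enter all of these values.

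Other genes of the early response moved in both directions. Of 30 tested, 16 fell and 7 rose in -NRAS tumours (median −0.26), against 27.5% and 31.8% of all tested genes. In MEKi tumours 14 fell and 5 rose (median −0.24), against 20.9% and 24.3%. The largest changes in -NRAS tumours were Maff at −3.15 ± 0.15, Egr3 at −2.10 ± 0.19 and Atf3, a stress factor, at 2.06 ± 0.15. Under the inhibitor they were Egr2 at −3.27 ± 0.14, Egr3 at −2.54 ± 0.19 and Atf3 at 2.28 ± 0.15. Between the treated groups 6 were lower and 10 higher in -NRAS tumours (median 0.06), led by Nr4a2 at −1.62 ± 0.14, Maff at −1.41 ± 0.15 and Egr2 at 1.32 ± 0.14. Among all tested genes 22.7% were lower and 24.3% higher in this contrast, so these counts lie near the background.

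ERK output genes, which include the feedback phosphatases, SPRY and SPRED inhibitors, ETV factors and EGF-family ligands, were lower almost throughout. Of 18 tested, 16 fell in -NRAS tumours (27.5% of all tested genes) and 17 in MEKi tumours (20.9% of all tested genes). None of the 18 rose, against 31.8% and 24.3% of all tested genes, and their medians were −2.63 and −1.40. The 3 with the largest changes were Ereg, Dusp4 and Fosl1 in -NRAS tumours (−5.09 ± 0.31, −4.57 ± 0.17 and −3.87 ± 0.16) and Ereg, Dusp5 and Dusp4 in MEKi tumours (−3.72 ± 0.31, −2.69 ± 0.17 and −2.63 ± 0.17). In -NRAS minus MEKi 15 of the 18 were lower and 1 higher (median −1.06), against 22.7% and 24.3% of all tested genes. The largest changes in the list were Ccnd1 at −2.08 ± 0.13, Dusp4 at −1.94 ± 0.17 and Fosl1 at −1.64 ± 0.16.

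**Figure D5:**
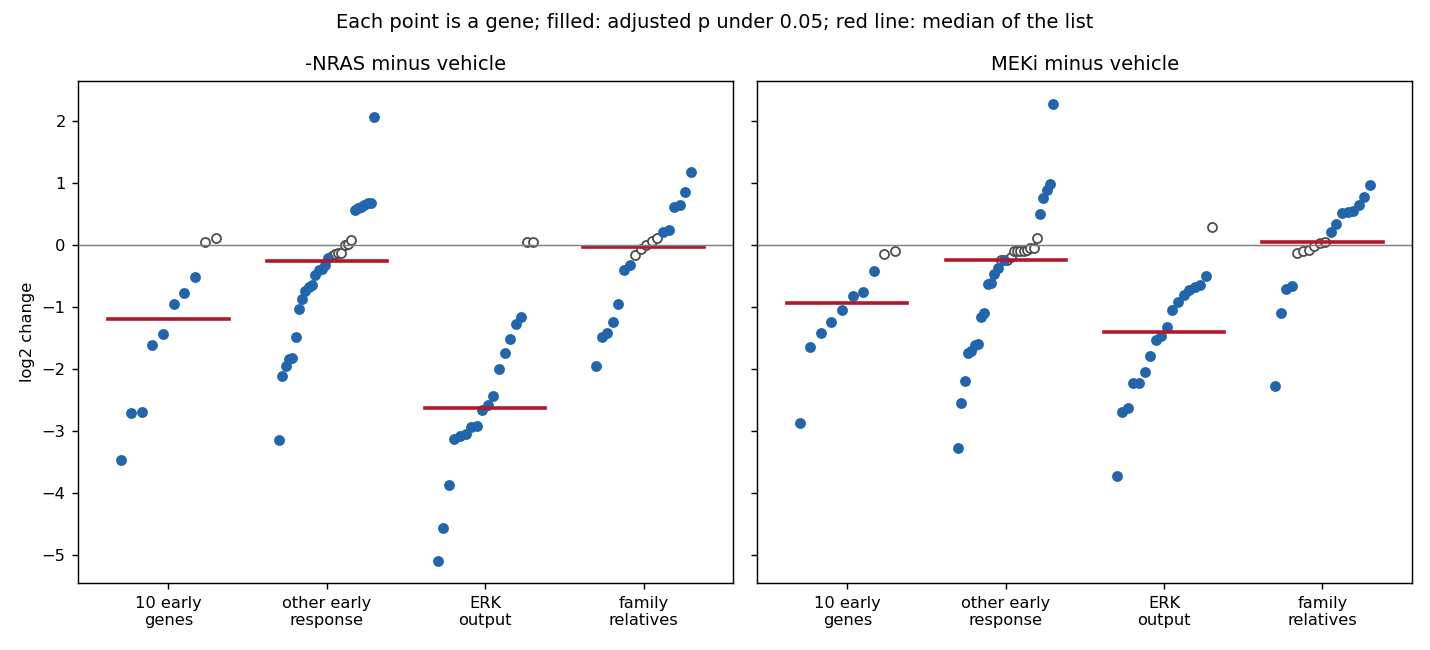
Log2 change of single genes (points, filled where the limma adjusted p was under 0.05) for the 10 early genes, 30 other early response genes, 18 ERK output genes and 18 family relatives, in -NRAS minus vehicle (left) and MEKi minus vehicle (right). Red lines are medians: −1.20 and −0.94 for the 10 early genes, −0.26 and −0.24 for other early response genes, −2.63 and −1.40 for ERK output genes, −0.03 and 0.04 for relatives.

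Family relatives moved in both directions. Of 18 tested, 7 fell and 6 rose in -NRAS tumours, against 27.5% and 31.8% of all tested genes. In MEKi tumours 4 fell and 8 rose, against 20.9% and 24.3% of all tested genes. Klf5, a growth-promoting factor of epithelia, changed by −1.96 ± 0.14 and −2.28 ± 0.14, and Ier5l, the closest relative of Ier5, changed by −1.48 ± 0.08 and −1.10 ± 0.08. Klf11 rose by 0.86 ± 0.07 and 0.96 ± 0.07, opposite to Klf10, to which it is related. Plk1, the mitotic kinase, fell by 1.42 ± 0.11 in -NRAS tumours and rose by 0.53 ± 0.11 in MEKi tumours (limma adjusted p = 4.05e-09 and 0.000889), and the centriole kinase gene Plk4 was lower in -NRAS than in MEKi tumours, at −1.50 ± 0.12. Klf2, a factor of endothelium and lymphocytes, was higher in -NRAS than in MEKi tumours by 0.75 ± 0.15. Both Klf2 and Ier5l are also counted among the other early response genes above. Phlda3, the remaining PHLDA gene, chosen after its values were seen, changed by −1.25 ± 0.09 and −0.72 ± 0.09.

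Because Plk2 and Phlda3 are also known p53 targets, p53 target genes were set beside them. Of 19 tested, 6 fell and 8 rose in -NRAS tumours, against 27.5% and 31.8% of all tested genes. In MEKi tumours 6 fell and 7 rose, against 20.9% and 24.3%. The medians of the list were −0.01 and 0.02. Trp53inp1, Ddit4 and Sesn1, which restrain growth, rose by 1.45 ± 0.09, 1.34 ± 0.14 and 1.33 ± 0.10 in -NRAS tumours and by 1.22 ± 0.09, 1.57 ± 0.14 and 0.80 ± 0.10 in MEKi tumours. In -NRAS minus MEKi, 8 of the 19 were higher and 4 lower, against 24.3% and 22.7% of all tested genes. The largest changes in the list were Eda2r at 0.99 ± 0.13, Gtse1 at −0.76 ± 0.08 and the death receptor gene Fas at 0.63 ± 0.07. The list shares Phlda3 with the family relatives and Btg2 with the other early response genes. Cdkn1a, the p21 cell cycle inhibitor, and Mdm2, the ligase that degrades p53, were named after their values were seen. Cdkn1a changed by −1.05 in -NRAS and −0.44 in MEKi tumours, and Mdm2 by −0.34 and −0.33, all past the threshold.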

How the data were processed

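Total RNA of 18 allografts was hybridised as biotin-labelled cRNA to Affymetrix arrays, per the labels' protocols. The deposited table holds 1 intensity per probe set and tumour. The submitters' processing notes name MAS5 and RMA without saying which of them the authors used for these intensity values. They were read as linear, since they ran between 7.37 and 44480. Symbols came from the platform annotation (34945 probe sets with 1 symbol, 932 with several, 9160 with none). The probe set of highest mean stood for a gene, and 15005 genes with a mean log2(intensity + 16) above 5.305, the 25th percentile of all probe sets, were tested. One limma model (version 3.58.1, R 4.3.3) covered all 18 tumours, with 15 residual and 3.46 prior degrees of freedom, and p-values were Benjamini-Hochberg adjusted within each contrast. The code was tested on simulated data. A second fit took 27656 probe sets singly. No labels give a batch, and the number of arrays limits the precision.

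Members and lists were chosen with earlier results of these data known. Named genes were the 10 members, up to 3 genes per list and contrast with the largest change among those called, and the 3 genes most correlated with each member. Etv1, Areg, Klf8, Bax and Dsg3 were not analysed here. Alternatives were other pseudocounts, filters, probe set rules and normalizations, a replicate block, fits of 2 groups, a threshold of 0.01 and leaving out each tumour. Plots used matplotlib 3.10.9 (Python 3.11.15).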

Additional observations from a re-analysis of the deposited data

Results flagged for a closer look

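In 54 sets of 6 values (18 probe sets in 3 groups), 3 had a tumour far from the rest of its group, about as many as the 1 in 20 that chance gives. Vehicle replicate 2 had a Plk2 intensity (1427005_at) of 2090, against 1260 to 1460 in the other 5 vehicle tumours. The same tumour read 1310 for the second Klf4 probe set (1417395_at), against 932 to 1020 in the others. For Klf6 (1447448_s_at), -NRAS replicate 1 read 962, against 1130 to 1210 in the other 5 -NRAS tumours. Leaving out vehicle replicate 2 ended no call for Plk2 or Klf4 against vehicle tumours.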

How the results depend on the processing

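Counts of genes were recomputed under 12 alternatives and without each of the 18 tumours. The members that fell stayed at 8 in -NRAS minus vehicle, 8 in MEKi minus vehicle and 4 in -NRAS minus MEKi, whichever tumour was left out. Those that rose stayed at 0, 0 and 2 to 3. Over all genes, leaving out a tumour gave 4558 to 4833 that rose and 3902 to 4181 that fell in -NRAS minus vehicle, 3350 to 3674 and 2962 to 3161 in MEKi minus vehicle, and 3441 to 3670 and 3135 to 3435 in -NRAS minus MEKi. With every probe set fitted on its own, 7683 probe sets rose and 7916 fell in -NRAS minus vehicle, 5790 and 6068 in MEKi minus vehicle, and 5896 and 5860 in -NRAS minus MEKi, because 27656 probe sets were tested in place of 15005 genes. One member probe set then rose in -NRAS minus vehicle, as with the most variable probe set per gene (1 member, Ier5), and 5 were higher in -NRAS minus MEKi. At an adjusted p under 0.01, 1 member was higher in -NRAS than in MEKi tumours (Ier2) in place of 3. With a replicate block, the counts of members were unchanged (8, 8 and 4 fell, and 0, 0 and 3 rose) and no count over all genes moved by 1.5 times. Same-numbered tumours deviated together at −0.136 to 0.273, above 0.1 in 8 of 18 pairs. Differently numbered tumours were not compared, so these values cannot tell whether the numbers mark pairs. The main model did not take them as pairs. Of 921 member values under alternatives, 12 gained and 11 lost a call, all of them for Ier5, Klf6, Klf10 and Plk3, and 12 changed sign, none with a call on either side. The sign changes were of Ier5 and Klf6. With the mean of its probe sets, Klf6 was at −0.11 in -NRAS minus vehicle, and with the most variable one at −0.39, where Ier5 was at 0.0090 in MEKi minus vehicle. With probe sets taken singly, Ier5 was at −0.13 in -NRAS minus vehicle (1417613_at) and 0.0090 in MEKi minus vehicle (1460009_at). Klf6 was then at −0.39, −0.098, −0.071 and −0.022 in -NRAS minus vehicle, 0.060 in MEKi minus vehicle and −0.082 in -NRAS minus MEKi. Leaving out each tumour in turn gave −0.0086 (without vehicle replicate 6) to 0.081 for Klf6 in -NRAS minus vehicle. The median over the members in -NRAS minus vehicle was −0.89 with the mean of all probe sets. Without -NRAS replicate 3, Ier5 was higher in -NRAS than in MEKi tumours (0.34, limma adjusted p = 0.0188). Low signal limits Phlda2 in the treated tumours.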
